A study of Rattus norvegicus with 8 samples.

Results

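The genes described here set how nitric oxide is made, how its substrate arginine is used up and how its messenger cyclic GMP (cGMP) is broken down or passed on in the arterial wall. The group was chosen by gene name and holds 10 genes, Nos1, Nos3, Arg1, Arg2, Ddah1, Ddah2, Gch1, Prkg1, Pde5a and Cav1. Of these, 9 have a row among the 19238 genes of the deposited gene table, and Prkg1, the cGMP-dependent protein kinase of smooth muscle, is not analysed here. RNA sequencing was done on total RNA of the thoracic aorta from 4 GK rats, a strain that develops diabetes without obesity and is labelled as a model of diabetic macroangiopathy (disease of the large arteries), and from 4 Wistar rats as controls. The rats of both groups were 7 to 8 weeks old, no treatment is given for either, and the libraries carry the numbers 7 to 10 in each group. Strain and diabetes are the same split of the samples, so their effects cannot be told apart. Beyond the sample titles nothing says that the libraries come from separate animals, so p-values measure the spread between these samples only, which may be technical.

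In arteries, endothelial nitric oxide synthase makes nitric oxide from arginine with the cofactor tetrahydrobiopterin, and nitric oxide diffuses into the smooth muscle, where soluble guanylate cyclase answers with cGMP. The kinase that cGMP activates relaxes the muscle, and phosphodiesterases end the signal. Arginases compete for the same arginine, and methylarginines, which the DDAH enzymes degrade, inhibit the synthases. Loss of nitric oxide signalling is a textbook feature of the diabetic vessel wall, which is the background against which these genes are usually read.

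Total gene counts were 11760397 to 16266151 per library. Values below are CPM, which are counts scaled to the library total times its normalization factor, unless FPKM, which also divides by gene length so that different genes can be set beside each other, is named. Contractile smooth muscle markers were present in every library, with summed levels of 3244 to 8768 CPM in GK and 6299 to 16527 CPM in controls, and so were 12 endothelial markers, at 1164 to 1399 CPM in GK and 738 to 1157 CPM in controls. In bulk tissue, fewer cells of a type and less RNA per cell cannot be told apart. The library GK 9 stood apart from the others. The 7 skeletal muscle markers found, none of which is at 0 in every library, summed to 16924 CPM in GK 9, against 18.6 to 46.8 CPM in the other GK libraries and 17.9 to 48.4 CPM in controls. Markers of nerve and Schwann cells summed to 2089 CPM in GK 9, against 362 to 574 CPM in the other GK libraries and 252 to 756 CPM in controls, the highest of these being Control 9. In GK 9, 483 of 13673 tested genes were at least 3-fold higher than in each other GK library (0.5 CPM added). General adipocyte markers summed to 13157 to 30356 CPM in GK and 8244 to 12953 CPM in controls. Lpl alone made up much of these sums, with a mean of 10061 CPM in GK and 2879 CPM in controls. Of the 12 markers of this list, 10 had a log2 fold change above 0 and 2 below. For genes of the group, values without GK 9 are given below where leaving it out changes a call or a direction. For the pathway lists, the number past the test without GK 9 is given where it changes. Counts of markers past the test are for all libraries only.

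Per length of gene, the order of the levels was led in both groups by Cav1, the coat protein of caveolae, at 337 ± 53.3 FPKM in GK and 388 ± 68.0 FPKM in controls (SD, n = 4 each). No other gene of the group came near it. In GK libraries Ddah2 (16.8 ± 8.14 FPKM), Ddah1 (13.5 ± 18.1 FPKM), Nos3 (12.3 ± 2.28 FPKM) and Pde5a (11.3 ± 5.81 FPKM) followed, and neighbours in this order had overlapping ranges. Gch1 (2.11 ± 1.60 FPKM) lay below Pde5a without overlap, and Arg1 (0.35 ± 0.15 FPKM), Nos1 (0.30 ± 0.48 FPKM) and Arg2 (0.061 ± 0.094 FPKM) lay lower still, again with overlapping ranges. In controls the order was Ddah2 (27.1 ± 10.4 FPKM), Pde5a (26.9 ± 11.3 FPKM), Ddah1 (10.4 ± 3.57 FPKM), Nos3 (8.18 ± 2.56 FPKM), Gch1 (3.41 ± 3.11 FPKM), Arg1 (1.55 ± 0.38 FPKM) and Nos1 (0.94 ± 0.69 FPKM), each overlapping the next. Control Arg2, at 0.21 ± 0.099 FPKM, lay below every control value of Nos1. Pde5a thus stood next to Ddah2 in controls and below Nos3 in GK, although the ranges of Pde5a and Nos3 overlapped in GK.

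Of the 8 genes of the group that were tested (Arg2 did not pass the filter on low counts), 2 passed edgeR's quasi-likelihood test in the fit over all genes, Nos3 higher and Arg1 lower in GK. Over all 13673 tested genes 7.28% passed, 3.96% higher and 3.31% lower in GK. Without GK 9, Nos3, Arg1, Nos1 and Pde5a passed, where 22.1% of all tested genes did. Without GK 7 or without Control 10 none of the 8 passed in edgeR, and 3 had an unadjusted p under 0.05, as had 19.9% of all tested genes in each of these fits. In CPM, Nos3 and Arg1 were also the only genes of the group whose libraries did not overlap between GK and controls. Of all tested genes, 15.5% had no such overlap in CPM. The FPKM of Nos3 did overlap, at 9.96 in GK 10 and 11.2 in Control 9. The median log2 fold change of the 8 genes was -0.54, beside 0.00081 over all tested genes. All log2 fold changes are GK over control with their SE (4 libraries in each group), and all adjusted p-values of genes are Benjamini-Hochberg values of edgeR's quasi-likelihood test over all tested genes. Beside these, the authors' deposited table calls Arg1 and Pde5a lower in GK and no other gene of the group, where it calls 5.4% of all genes.

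**Figure D1:**
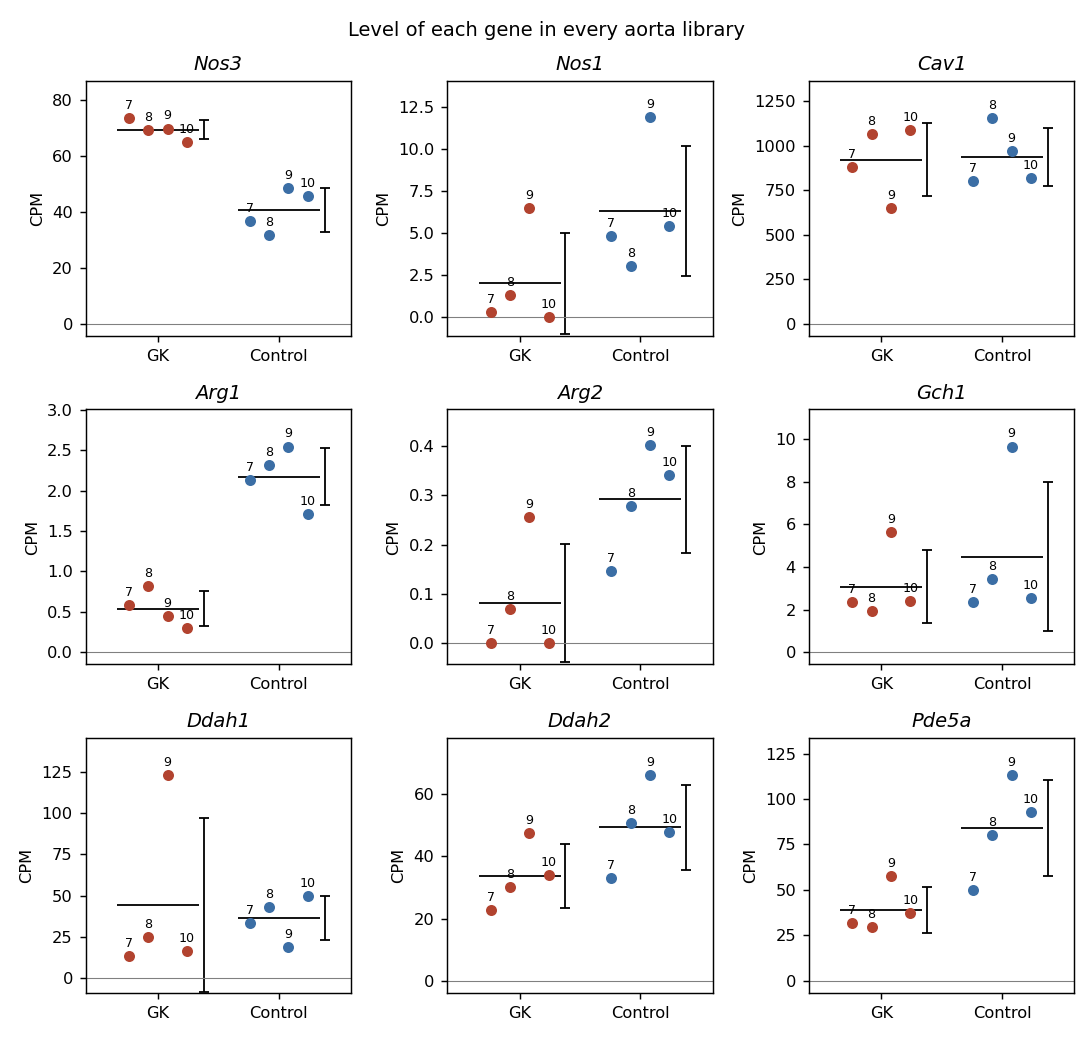
CPM of the 9 genes with a row in the table, in each GK library (left, red) and each Control library (right, blue), with library numbers beside the points, horizontal lines for group means and bars for ±1 SD. Nos3 and Arg1 are the panels without overlap between GK and Control, and in the Ddah1 panel GK 9 lies at 124 CPM, above the 49.5 CPM of the highest Control library.

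Nos3 encodes the endothelial nitric oxide synthase, the main source of nitric oxide in an artery. Its level was 73.6, 69.2, 69.9 and 65.1 CPM in GK 7 to 10, against 36.8, 31.6, 48.7 and 45.6 CPM in controls 7 to 10. In CPM the GK libraries lay close together, and the lowest of them was above the highest control. In FPKM the groups overlapped, at 9.96 in GK 10 and 11.2 in Control 9. Nos3 rose in GK with a log2 fold change of 0.77 ± 0.15 (edgeR adjusted p = 0.0252), and without GK 9 the value was 0.78 ± 0.16 (edgeR adjusted p = 0.0149). Scaling by library totals alone gave 0.60 (edgeR adjusted p = 0.189), which ends the call, and the call was also lost without any 1 of GK 7, GK 8, GK 10, Control 7 or Control 10 (adjusted p between 0.0503 and 0.0858). Mitochondrial genes took 14.7% to 31.6% of the counts in GK libraries and 8.27% to 27.4% in controls, the part of which in the scaling was not tested. In the authors' deposited table Nos3 has a log2 fold change of 0.59 from FPKM with q = 0.0535 and is not called.

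The gene lies on chromosome 4, 7320668 to 7342410 in the files' coordinates (no source used here gives their build), and it overlaps Atg9b (chromosome 4, 7314369 to 7321029), an autophagy gene named here because of that overlap. Whether counting used strand is not stated. Atg9b had 0 counts in every GK library and 0, 0, 4 and 1 counts in controls 7 to 10. To show the start of the gene that rose, beside that of Pde5a, the phosphodiesterase gene that the authors' deposited table calls lower, the 250 bases before each transcription start are printed from RefSeq (GRCr8, a build that need not be that of the files). They are chr4:11706582-11706831 on the minus strand for Nos3 and chr2:213543776-213544025 on the plus strand for Pde5a, written 5′ to 3′ with the letters of the GC box, GGGCGG or its reverse complement, in capitals.
Nos3: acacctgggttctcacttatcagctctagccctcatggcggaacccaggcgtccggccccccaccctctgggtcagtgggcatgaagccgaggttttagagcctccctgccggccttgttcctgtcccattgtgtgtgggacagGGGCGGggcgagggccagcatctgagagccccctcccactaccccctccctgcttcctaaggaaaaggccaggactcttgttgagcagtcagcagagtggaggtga
Pde5a: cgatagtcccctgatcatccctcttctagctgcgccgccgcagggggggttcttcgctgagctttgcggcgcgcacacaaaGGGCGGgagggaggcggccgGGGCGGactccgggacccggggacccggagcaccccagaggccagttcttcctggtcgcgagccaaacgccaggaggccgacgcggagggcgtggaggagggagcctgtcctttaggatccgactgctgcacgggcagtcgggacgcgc
A GC box occurs 1 time in the Nos3 window and 2 times in the Pde5a window, and 30.5% of 33469 rat promoters of the same length hold it. The GC content was 62.4% for Nos3 and 70.4% for Pde5a, against a median of 51.2% over all promoters. The letters of the TATA box (TATAAA, in 12.9% of promoters), of an AP-1 site (TGANTCA, 6.34%), of a GATA core (AGATAA, 10.3%), of an ETS core with its flank (CCGGAA, 12.6%) and the CArG box known from smooth muscle genes (1.5%) occur in neither window on either strand. The E-box (CANNTG, in 65.5% of promoters) occurs 2 times for Nos3 and not for Pde5a. Promoters for 7 of the 10 genes are in the table; Arg1, Arg2 and Ddah2 are not.

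Endothelial markers were higher in part as well, so Nos3 was set against them within each library. Of 12 endothelial markers tested, 3 passed the test, all higher in GK (25%, against 7.28% of all tested genes). The 12 had a median log2 fold change of 0.30, with 8 above 0 and 4 below. Kdr, the VEGF receptor, rose by 1.45 ± 0.24, and Sox17, an arterial transcription factor, by 0.94 ± 0.17, while the junction gene Cdh5 had 0.48 ± 0.21 and Vwf, the von Willebrand factor gene, -0.51 ± 0.48 without passing the test. The log2 CPM of Nos3 minus the mean log2 CPM of the 12 markers was 0.033, 0.16, -0.075 and -0.0042 in GK 7 to 10, against -0.62, -0.49, -0.43 and -0.32 in controls 7 to 10. Every GK library was above every control. The difference was 0.50 on the log2 scale (exact permutation test over samples, two-sided, p = 0.0286, which is the smallest that 4 against 4 allows), and it was 0.44 to 0.55 with any 1 library left out. Nos3 was thus higher in GK relative to the mean of this marker list, whose members did not move alike.

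**Figure D2:**
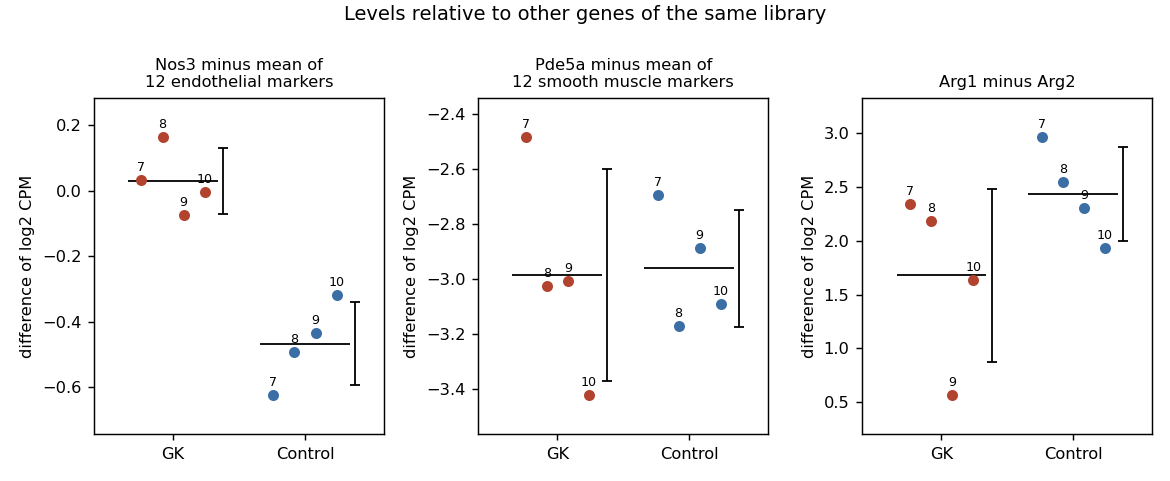
Differences of log2 CPM within each library, GK left of Control, for Nos3 minus the mean of 12 endothelial markers, Pde5a minus the mean of 12 contractile smooth muscle markers and Arg1 minus Arg2, with group means as lines and bars of ±1 SD. GK and Control separate in the Nos3 panel alone, where the difference of the means is 0.50.

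Nos1 encodes the neuronal synthase, which is known from nerve, and also from skeletal muscle. It had 4, 19, 101 and 0 counts in GK 7 to 10, against 66, 33, 177 and 79 counts in controls 7 to 10. In CPM these were 0.29, 1.31, 6.46 and 0 in GK, where a count of 0 in GK 10 allows up to 0.227 CPM (3 counts, counting error only), against 4.85, 3.06, 11.9 and 5.40 in controls. In each group library 9 was the highest, and GK 9 alone among the GK libraries reached the control range. With all libraries the log2 fold change was -1.62 ± 1.08 (edgeR adjusted p = 0.360). Without GK 9 it was -3.50 ± 0.88 and passed the test (edgeR adjusted p = 0.0283), and without both libraries numbered 9 it was -3.02 (edgeR adjusted p = 0.0432), in a fit that 18.6% of all tested genes passed. Library 9 of each group also had the highest nerve marker sum of its group, and GK 9 the skeletal muscle RNA, the part of which in the Nos1 level was not tested. Nos1 lies on chromosome 12, 44213943 to 44520341, and overlaps Fbxo21 in the files' coordinates.

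Cav1, the caveolin that binds and restrains endothelial nitric oxide synthase, was at 881, 1069, 649 and 1088 CPM in GK 7 to 10, against 803, 1157, 971 and 820 CPM in controls. The ranges lay over each other. The log2 fold change was -0.02 ± 0.23 (edgeR adjusted p = 0.961) and its sign changed with the libraries used, as with 0.12 ± 0.22 without GK 9. Gch1, the GTP cyclohydrolase that starts tetrahydrobiopterin synthesis, was at 2.34, 1.92, 5.63 and 2.42 CPM in GK 7 to 10, against 2.35, 3.43, 9.66 and 2.53 CPM in controls. Library 9 was the highest of its group on both sides. The log2 fold change of Gch1 was -0.54 ± 0.55 (edgeR adjusted p = 0.550), and its direction turned with the library left out, at -1.001 ± 0.53 without GK 9 (edgeR adjusted p = 0.198) and 0.16 without Control 9 (edgeR adjusted p = 0.850).

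The arginase genes were low in these aortas. Arg1, the cytosolic arginase that is abundant in liver and is also made by some macrophages, had 8, 12, 7 and 4 counts in GK 7 to 10, against 29, 25, 38 and 25 counts in controls, on chromosome 1, 21525421 to 21537863. In CPM these were 0.58, 0.82, 0.45 and 0.30 in GK, against 2.13, 2.31, 2.55 and 1.71 in controls. The highest GK library was below the lowest control, on 31 counts in all for GK and 117 for controls. Arg1 fell by 1.99 ± 0.34 in GK in log2 terms (edgeR adjusted p = 0.0179), and by 1.89 ± 0.39 without GK 9 (edgeR adjusted p = 0.0146). The authors' deposited table gives Arg1 a log2 fold change of -2.16 with q = 0.0200 and calls it lower. The call was lost without GK 7 (edgeR adjusted p = 0.0659) and without Control 10 (0.0541), and with adipocyte markers as a covariate (-2.25, 0.0668), the direction staying the same. Macrophage markers summed to 296 to 480 CPM in GK and 454 to 1100 CPM in controls. Of the 11, 10 were lower in GK and 1 passed the test (9.09%, against 7.28% of all tested genes). The part of macrophages in the Arg1 level was not tested.

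Arg2, the mitochondrial arginase that is the better known form in endothelium, had 0, 1, 4 and 0 counts in GK 7 to 10, against 2, 3, 6 and 5 counts in controls. At 5 counts in all for GK and 16 for controls it did not pass the filter on low counts (chromosome 6, 102311116 to 102338520). In a fit without that filter its log2 fold change was -1.69 ± 0.94 (edgeR adjusted p = 0.320). The log2 CPM of Arg1 minus that of Arg2 was 2.34, 2.19, 0.57 and 1.63 in GK 7 to 10, against 2.97, 2.54, 2.30 and 1.93 in controls. The groups overlapped. The difference of -0.75 did not pass an exact permutation test over samples (two-sided, p = 0.171), and with a prior count of 0.5 in place of 2 it was -0.03, so at this depth it rests on the value added to low counts. The counts of Arg2 are too few to show whether the 2 arginases moved alike.

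The dimethylarginine dimethylaminohydrolases remove methylarginine inhibitors of the synthases. Ddah1 was at 13.5, 24.7, 124 and 16.5 CPM in GK 7 to 10, against 33.6, 43.0, 18.6 and 49.5 CPM in controls. GK 9 held 1931 counts of it, while the other GK libraries lay below 3 of the 4 controls. The log2 fold change was 0.31 ± 0.70 over all libraries (edgeR adjusted p = 0.797), and -0.97 ± 0.35 without GK 9 (edgeR adjusted p = 0.0767). Without both libraries numbered 9 it was -1.20 and passed the test (edgeR adjusted p = 0.0181). The direction for Ddah1 thus turned with that library, whose skeletal muscle and nerve markers are given above and whose part in it was not tested. NONRATT015855.2, a lncRNA of the catalogue used by the authors that lies within the Ddah1 locus and was looked up for that reason, had 82 counts in GK 9 and 6, 7 and 5 in GK 7, 8 and 10, against 12, 6, 10 and 36 in controls 7 to 10.

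**Figure D3:**
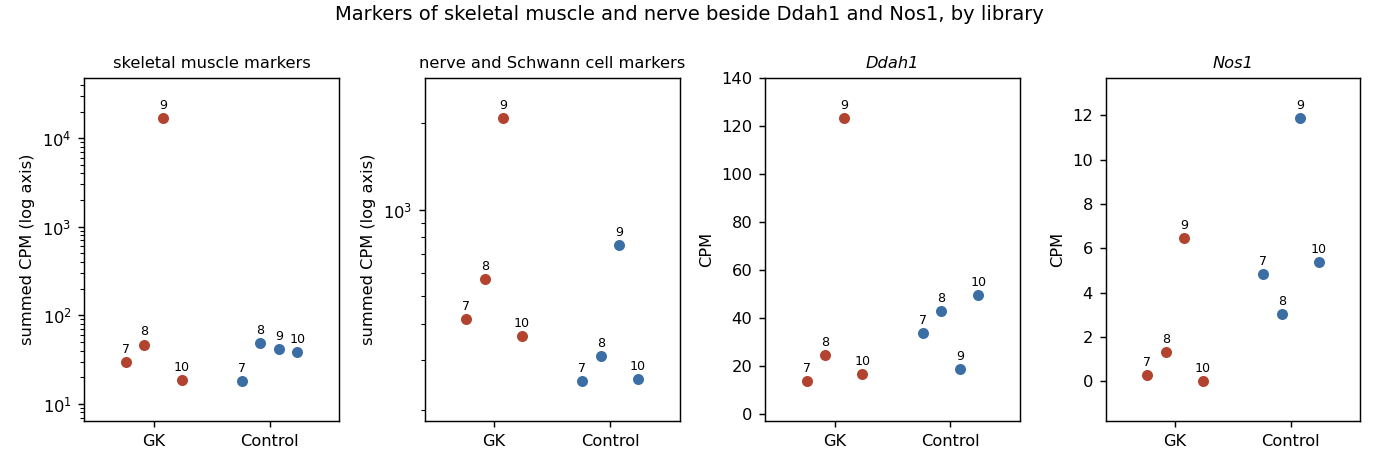
Summed CPM of 7 skeletal muscle markers and of 10 nerve and Schwann cell markers (log axes), and CPM of Ddah1 and Nos1 (linear axes), by library with its number, GK left of Control. GK 9 is the highest library for both marker sums and for Ddah1, at 124 CPM, and for Nos1 it is the highest GK library, at 6.46 CPM.

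Ddah2, the second of these enzymes and the form known from endothelium, was at 22.7, 30.2, 47.6 and 34.1 CPM in GK 7 to 10, against 32.9, 50.7, 66.3 and 47.9 CPM in controls. The ranges overlapped, GK 9 being the highest of its group and Control 9 of the other. The log2 fold change was -0.55 ± 0.27 (edgeR adjusted p = 0.223) and -0.75 ± 0.25 without GK 9 (edgeR adjusted p = 0.0609). Ddah2 lies on chromosome 20, 5049496 to 5052585, and overlaps the clone-named gene Rn60_20_0051.7.

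Pde5a encodes the phosphodiesterase that degrades cGMP in smooth muscle and is the target of sildenafil. It was at 31.7, 29.5, 57.4 and 37.2 CPM in GK 7 to 10, against 50.1, 80.2, 113 and 93.0 CPM in controls. Only GK 9 reached the range of the controls, above Control 7. Its log2 fold change of -1.11 ± 0.29 missed the threshold with all libraries (edgeR adjusted p = 0.0559), and without GK 9 it was -1.34 ± 0.26 and passed (edgeR adjusted p = 0.0127). DESeq2 gave it an adjusted p of 0.00742 with a log2 fold change of -1.08, and the authors' deposited table gives -1.25 with q = 0.0200 and calls it lower. The gene lies on chromosome 2, 226900619 to 227041576.

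Contractile smooth muscle markers were lower in GK beside Pde5a. All 12 had a log2 fold change below 0, with a median of -1.06, and 2 of them passed the test (16.7%, against 7.28% of all tested genes). Itga8, an integrin of smooth muscle, fell by 2.21 ± 0.39 and Lmod1, a leiomodin of the contractile apparatus, by 1.37 ± 0.32, while Acta2, the smooth muscle actin, had -1.34 ± 0.48 and Myh11, the smooth muscle myosin, -1.05 ± 0.43 without passing. The log2 CPM of Pde5a minus the mean of the 12 markers was -2.48, -3.03, -3.01 and -3.42 in GK 7 to 10, against -2.70, -3.17, -2.89 and -3.09 in controls. The control values lay within the span of the GK values. The difference was -0.02 (exact permutation test over samples, two-sided, p = 0.971), and between -0.19 and 0.12 with any 1 library left out. With adipocyte markers as a covariate the log2 fold change of Pde5a was -0.31 ± 0.32 (edgeR adjusted p = 0.617). That covariate itself differed between the groups, as given below, and the part of fat in the Pde5a level was not tested.

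**Figure D4:**
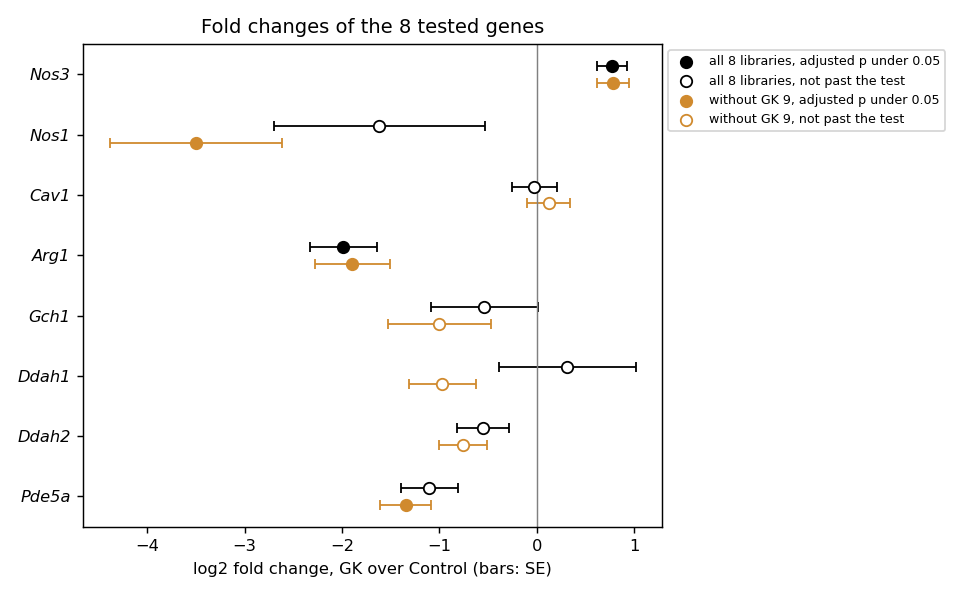
log2 fold changes, GK over Control, of the 8 tested genes with bars of ±1 SE, over all 8 libraries (black) and without GK 9 (orange), filled where the edgeR adjusted p is under 0.05. Nos3 and Arg1 are filled in both, Nos1 and Pde5a only without GK 9, and Ddah1 lies at 0.31 with GK 9 and at -0.97 without it.

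The genes around this group were taken from lists of pathway genes. Of 59 listed genes 52 were found and 47 tested, and 6 passed the test, 3 higher and 3 lower in GK (12.8%, against 7.28% of all tested genes). Without GK 9, 13 passed, 5 higher and 8 lower (27.7%, against 22.1% of all tested genes). Their median log2 fold change was 0.02, with 24 above 0 and 23 below. Nos2, Nos1ap, Hsp90aa1, Prmt6, Agxt2, Nppc and Pde11a were on the lists and are not analysed here.

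Upstream of cGMP, no partner of the synthases passed the test (0 of 9, against 7.28% of all tested genes). Without GK 9, 2 of the 9 passed, both higher, where 22.1% of all tested genes did. Ptrf, the cavin of caveolae and the partner with the highest mean level, had a log2 fold change of -0.10 ± 0.20. None of 3 genes of methylarginine formation passed, with the arginine methyltransferases Prmt3 at 0.25 ± 0.15 and Prmt5 at -0.07 ± 0.10. None of 6 genes of tetrahydrobiopterin synthesis and recycling passed either, with the dihydropteridine reductase Qdpr at 0.29 ± 0.25 and Pcbd1, of the same recycling route, at 0.24 ± 0.27. At an unadjusted p under 0.05, 13 of the 47 genes passed in edgeR (27.7%, against 27.6% of all tested genes), and with DESeq2 11 passed after adjustment (23.4%, against 16.2%). Of 7 genes of arginine supply and use 1 passed (14.3%, against 7.28% of all tested genes). Without GK 9, 1 higher and 1 lower of the 7 passed, where 22.1% of all tested genes did. Odc1, the ornithine decarboxylase that leads from the arginase product to polyamines, was at 334, 344, 104 and 350.4 CPM in GK 7 to 10, against 102, 113, 52.2 and 62.4 CPM in controls. It was high in GK 7, 8 and 10 and lower in GK 9, which overlaps the controls, and it rose by 1.78 ± 0.41 in log2 terms (edgeR adjusted p = 0.0404).

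Among guanylate cyclases and natriuretic peptide genes 1 of 6 passed (16.7%, against 7.28% of all tested genes). Without GK 9, 1 higher and 2 lower passed, where 22.1% of all tested genes did. Npr3, the clearance receptor that removes natriuretic peptides, was at 349, 230, 59.6 and 170.4 CPM in GK 7 to 10, against 37.6, 29.9, 60.4 and 11.3 CPM in controls, and rose by 2.54 ± 0.61 (edgeR adjusted p = 0.0451). GK 9 again lay within the control range. Of the 6 tested genes 2 had a log2 fold change above 0 and 4 below. Genes of soluble guanylate cyclase, named here because that enzyme makes the cGMP, had -0.61 ± 0.35 (Gucy1a3), -0.49 ± 0.31 (Gucy1a2) and -0.53 ± 0.39 (Gucy1b3) without passing. Gucy1b2, a further such gene, had 1, 0, 4 and 1 counts in GK 7 to 10, against 10, 9, 3 and 34 in controls. It did not pass the filter, and the authors' deposited table calls it lower. Of 8 cyclic nucleotide phosphodiesterases other than Pde5a 1 passed (12.5%, against 7.28% of all tested genes). Without GK 9, 1 higher and 1 lower of these passed, where 22.1% of all tested genes did. The one that passed with all libraries was Pde3b, the form of fat and liver that insulin activates. It was at 575, 481, 267 and 549 CPM in GK 7 to 10, against 247, 229, 149 and 119 CPM in controls, and rose by 1.33 ± 0.32 (edgeR adjusted p = 0.0428), with no overlap of the groups. In GK 7, 8 and 10, brown adipocyte markers summed to 4713 to 5656 CPM, against 1594 in GK 9 and 541 to 2986 in controls. Ucp1 alone made up much of these sums, with a mean of 2827 CPM in GK and 970 CPM in controls, without passing the test. Of 6 brown adipocyte markers tested, all had a log2 fold change above 0 and 2 passed (33.3%, against 7.28% of all tested genes). With adipocyte markers as a covariate the log2 fold changes were 0.07 for Odc1, 1.02 for Npr3 and 0.21 for Pde3b, and none of the 3 passed. That covariate, the mean log2 CPM of brown and general adipocyte markers, was 7.87 to 8.92 in GK and 7.13 to 8.03 in controls. Since it follows the groups in part, it cannot tell fat from strain, and the part of fat in these levels was not tested. Odc1, Npr3 and Pde3b each also lost the call without a filter on low counts (edgeR adjusted p 0.0534 to 0.0568) and in 7 of 8 fits with 1 library left out, all but that without GK 9. Npr3 lost it with library totals alone as well (0.0727).

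The cGMP kinase and its substrates were the list with the most calls, 3 of 8 tested genes, all lower (37.5%, where 7.28% of all tested genes passed and 3.31% were lower). Their median log2 fold change over the 8 was -0.93. Without GK 9, 4 of the 8 passed, all lower, where 22.1% of all tested genes passed in either direction. Mrvi1, the gene of IRAG, through which the kinase quiets calcium release, was at 46.0, 76.0, 110 and 97.7 CPM in GK 7 to 10, against 191, 305, 258 and 364 CPM in controls. It fell by 1.76 ± 0.30 (edgeR adjusted p = 0.0179). Kcnmb1, the beta subunit of the large-conductance potassium channel of smooth muscle, was at 5.55, 9.34, 19.7 and 14.3 CPM in GK 7 to 10, against 24.2, 42.8, 49.4 and 62.4 CPM in controls, and fell by 1.86 ± 0.42 (edgeR adjusted p = 0.0361). Rgs2, which ends signals of vasoconstrictor receptors and is activated by the kinase, was at 70.1, 45.3, 36.8 and 73.8 CPM in GK 7 to 10, against 292, 225, 76.1 and 151 CPM in controls, and fell by 1.72 ± 0.41 (edgeR adjusted p = 0.0438). For each of these 3 genes the groups did not overlap in CPM, as was so for 15.5% of all tested genes. With adipocyte markers as a covariate Rgs2 alone of the 3 kept its call (-2.78, edgeR adjusted p = 0.0287), with -1.27 for Mrvi1 (0.126) and -0.91 for Kcnmb1 (0.316). With 1 library left out the call was lost in 2 of 8 fits for Mrvi1 and in 6 of 8 for Kcnmb1 and for Rgs2, and it was lost with library totals alone for Kcnmb1 (0.0688) and without a filter for Rgs2 (0.0584). These genes are expressed in smooth muscle, whose 12 contractile markers had a median log2 fold change of -1.06, and its part in their levels was not tested. Prkg2, the kinase of the second type, named here after its values were seen, had 283 counts in GK 9 and 0 in the other GK libraries, against 1, 0, 3 and 2 in controls 7 to 10, and did not pass the filter.

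**Figure D5:**
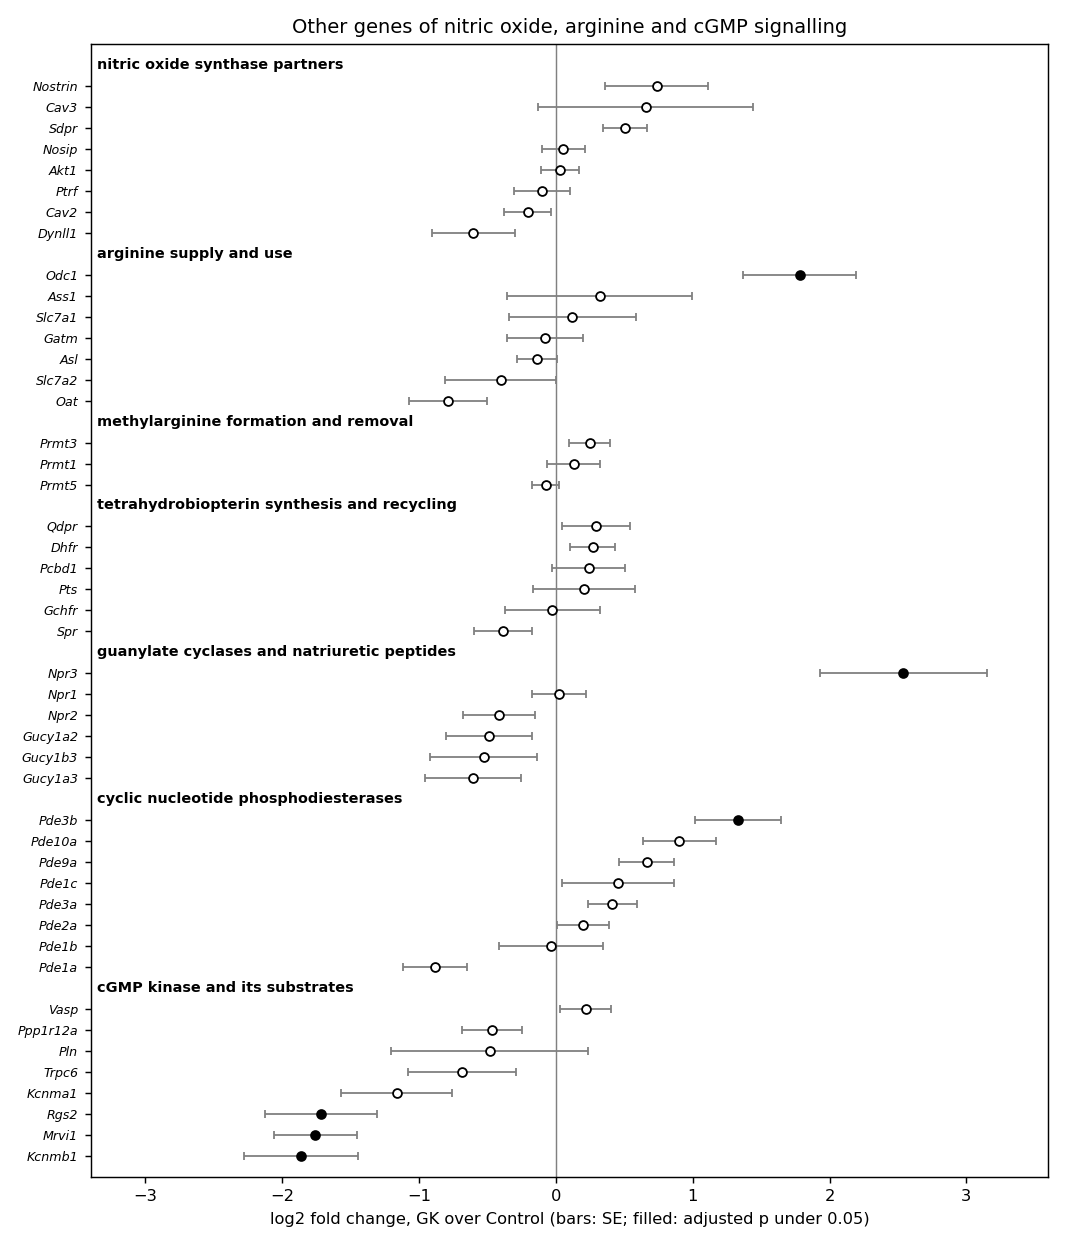
log2 fold changes, GK over Control, of tested pathway genes with bars of ±1 SE, grouped by list and sorted within it, filled where the edgeR adjusted p is under 0.05. Of the 6 filled points, Odc1, Npr3 and Pde3b lie to the right of 0 and Rgs2, Mrvi1 and Kcnmb1, all of the cGMP kinase list, to the left.

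The authors' deposited table of pathways counts 9 of their called genes among 48 of arginine and proline metabolism, 5 higher and 4 lower, with Arg1 among them. It counts 20 of 159 for cGMP-PKG signalling, 8 higher and 12 lower, with Pde5a among them. Over all its pathways it has 395 called genes of 7055.

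For the 2 genes that passed the test, the genes of most similar pattern over the 8 libraries were looked for among 11298 genes. Nearest to Nos3 by Pearson's r of log2 CPM were Nova2, an RNA-binding protein gene (r = 0.99), Efnb1, the ephrin-B1 gene (r = 0.99), and Fem1b, a ubiquitin ligase subunit (r = 0.98). Nova2 rose by 0.96 and Efnb1 by 0.79 on the log2 scale in GK, and Fem1b had 0.32 without passing the test. Nearest to Arg1 were Tcp11l2 (r = 0.98), Hsd17b11, a dehydrogenase of lipid droplets (r = 0.97), and Cd302, a lectin-type receptor (r = 0.96), which fell by 0.77, 0.52 and 1.06. These are descriptions over 8 libraries, which share the split into 2 groups.

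In the authors' prediction of targets of called lncRNA transcripts (17441 pairs with 1105 target genes), Nos3 is the only gene of the group. It has 47 pairs, all in trans, where the median target gene has 5 and 102 target genes have at least as many. The authors call 26 of these transcripts higher and 21 lower in GK. Of the 47, 22 passed the filter on low counts and 14 passed edgeR's test in the fit over the lncRNA table, 8 higher and 6 lower, where 2.74% of all tested transcripts passed. Since the list was made of transcripts that the authors call from these libraries (3.14% of the lncRNA table), that share is no result about Nos3. The 5 with the lowest adjusted p were NONRATT001106.2 (19.0 ± 2.78 CPM in GK and 111 ± 29.3 in controls), MSTRG.23736.1 (2.14 ± 1.56 CPM in GK and 86.7 ± 30.1 in controls), NONRATT020568.2 (286 ± 93.2 CPM in GK and 40.7 ± 4.87 in controls), MSTRG.16205.16 (1200.2 ± 451 CPM in GK and 132 ± 38.8 in controls) and MSTRG.42230.1 (56.2 ± 22.0 CPM in GK and 4.14 ± 2.20 in controls), all SD with n = 4 each. The first 2 fell and the other 3 rose in GK. These CPM are scaled to the totals of the lncRNA counts alone, so they cannot be set beside the CPM of genes. Other catalogue transcripts overlap Nos3 itself. NONRATT021111.2, the most counted of them, had 15, 8, 3 and 23 counts in GK 7 to 10, against 8, 5, 1 and 11 in controls, and did not pass the filter.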

How the data were processed

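Total RNA of the thoracic aorta of 4 GK and 4 control rats was analysed from the files that the authors deposited, with groups taken from the sample titles. The source name of the controls also reads GK and played no part. Raw counts of genes and of lncRNA transcripts were deposited as whole numbers, in count columns per the file headers. The authors also give FPKM for each library, per the file headers, which served for levels between genes and not for tests. The log2 fold changes in the authors' deposited table compare group means of FPKM. The p-values and q-values there are the authors' own, from edgeR per the file names, without a version. The pathway gene numbers and the pairs of lncRNA and target are the authors' as well, made by means that no source used here gives. The submitters' processing notes name Bowtie 0.12.2 and 2 mouse builds, mm8 and mm9, without a role. No source used here names the rat build or the counting tool.

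From the counts, edgeR 4.0.16 in R 4.3.3 was run over the whole gene table (filterByExpr by group, TMM scaling, then glmQLFit and glmQLFTest with group alone in the model) with Benjamini-Hochberg adjustment and a threshold of 0.05, and likewise over the lncRNA table. SE was taken as the size of the log2 fold change divided by the square root of F. CPM are counts over the library total times the TMM factor, with separate totals and factors for genes and for lncRNA transcripts. Within-library differences used log2 CPM with a prior count of 2 and exact permutation tests of all 70 regroupings. DESeq2 1.42.0 was an alternative, with other scalings, no filter, a replicate block, left-out libraries and an adipocyte covariate. The scripts were tested on simulated counts. A check of correlations did not settle whether the same numbers in both groups pair the libraries, so the main fit has no block. Within a group, no 2 libraries agreed within sampling noise.

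The genes, the lists and the tests were chosen with earlier results of these data known. Named genes were all 10 of the group and, of each pathway list, up to 4 past the test with the lowest adjusted p, or else the 2 with the highest mean CPM. To these came the 3 genes of highest r for each gene past the test and the 5 paired lncRNA transcripts with the lowest adjusted p. Further genes are marked where they appear, and 1 pathway gene that the rule names is not reported here. Markers not named one by one were those of brown and general adipocytes, macrophages, fibroblasts, skeletal muscle, nerve, neutrophils and erythroid cells. Fibroblast markers summed to 1089 to 3591 CPM in GK and 3656 to 7435 CPM in controls, neutrophil markers to 239 to 313 CPM in GK and 22.7 to 157 CPM in controls (mostly Mpo, at a mean of 281 CPM in GK and 73.0 CPM in controls, while 3 of the 4 tested had a log2 fold change below 0), and erythroid markers to 3516 to 7604 CPM in GK and 2053 to 29667 CPM in controls. A planned comparison of Prkg1 with smooth muscle markers could not be made, since Prkg1 is not analysed here. Term tables and circRNA tables of the authors that do not bear on these genes were not used here.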

Additional observations from a re-analysis of the deposited data

Results flagged for a closer look

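In groups of 4 libraries, a value was singled out where its gap to the next one, over the whole range of the group, passed Dixon's 95% critical value for 4 samples. Of 48 groups examined (genes of the group, named pathway genes and the within-library differences, by GK and control) 4 passed, where chance gives about 1 in 20, or 2.4. Ddah1, the methylarginine-degrading enzyme, stood at 124 CPM in GK 9, against 24.7 CPM in the next GK library. Gch1, the first enzyme of tetrahydrobiopterin synthesis, stood at 5.63 CPM in GK 9, against 2.42 CPM in the next, and at 9.66 CPM in Control 9, against 3.43 CPM in the next. Odc1, the ornithine decarboxylase, was low in GK 9 at 104 CPM, where the next GK library had 334 CPM. Of these 4 values 3 belong to GK 9, the library with 16924 CPM of skeletal muscle markers, and the part of that RNA in them was not tested.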

How the results depend on the processing

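Of 16 settings, the one reported included, Nos3 passed the test in 10 and Arg1 in 13, with log2 fold changes of 0.60 to 1.11 for Nos3 and -2.26 to -1.80 for Arg1 in the 15 alternatives. Pde5a passed in 5 and stayed below 0 in all. The median of all genes moved by -0.15 on the log2 scale with library totals alone and by under 0.1 otherwise. The calls over all genes, among the group and among pathway genes were 995, 2 and 6 as reported. They were 468, 1 and 4 with library totals alone (Nos3 0.60, adjusted p 0.189), 654, 2 and 2 without a filter on low counts, 2433, 3 and 11 with DESeq2, 655, 1 and 3 with adipocyte markers as a covariate, and 2532, 5 and 12 without both libraries numbered 9. With any 1 library left out they ranged over 135 to 3047, 0 to 4 and 0 to 13. The lowest values came without Control 10 and the highest without GK 9. The lncRNA transcripts paired with Nos3 that passed were 14 as reported, 6 without a filter, 30 with DESeq2 and 5 to 15 with any 1 library left out.

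Whether the replicate numbers pair the libraries is not stated, and the data do not settle it. Deviations from the group means correlated at 0.42, 0.068, 0.55 and 0.025 for numbers 7 to 10. As a hint from the data only, 2 of 4 GK libraries correlated best with their own number. With the replicate number as a block the calls were 2372, 4 and 11, with Ddah2 (adjusted p = 0.0221) and Pde5a (0.0105) passing beside Nos3 and Arg1 and with Ddah1 at -0.40, and the Nos3 difference from endothelial markers of 0.50 had an exact sign-flip p of 0.125, the smallest that 4 pairs allow. Without both libraries numbered 9 that difference was 0.54 with p = 0.10 by exact permutation, again the smallest possible. It was 0.44 to 0.55 with any 1 library left out. The Pde5a difference from smooth muscle markers changed sign around 0, at 0.039 with the median of the markers, 0.0088 without both libraries numbered 9 and -0.19 to 0.12 with any 1 left out. The Arg1 difference from Arg2 was -0.97 to -0.38 with any 1 left out.

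None of the genes whose sign turned had passed the test as reported. With the adipocyte covariate the values were 0.62 for Nos1, 0.07 for Ddah2, 0.79 for Gch1, 0.34 for Ptrf and -0.30 for Qdpr. With any 1 library left out Ddah1 ranged over -0.97 to 0.61, Gch1 over -1.001 to 0.16, Cav1 over -0.11 to 0.12 and Ptrf over -0.17 to 0.045. Without both libraries numbered 9 Ddah1 was -1.20 and Cav1 0.12. The causes were not tested. Depth limits Arg1, Arg2 and Nos1, which had 31, 5 and 124 counts in all in GK and 117, 16 and 355 in controls. The planned comparison of Prkg1 with smooth muscle markers was not run, as Prkg1 is not analysed here.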
